A study of Homo sapiens with 42 samples.

Results

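The mRNAs of the replication-dependent core and linker histones were followed in libraries that record where in the cell an RNA met a deaminase. Members were taken by gene symbol (H1-1 to H1-6 and the numbered H2AC, H2BC, H3C and H4C genes). Of 11984 gene names in the 7 tables used, 40 were members, and they held 1142 distinct called sites. On GRCh38, 34 of the genes lie on chromosome 6 and 6 on chromosome 1, and every listed site fell inside its gene's RefSeq interval.

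All cells compared here carried TadA-8e, a laboratory-evolved adenosine deaminase that turns adenosine into inosine, which is read as G. It was directed to the cytoplasm by an export signal (NES), to the nucleus by a localisation signal (NLS), or to the membrane of the endoplasmic reticulum (ERM). Plasmids were lipofected into HEK293T, a human embryonic kidney line, or electroporated into K562, a human leukaemia line of erythroid character, and GFP-positive cells were sorted. Poly(A) RNA was captured on beads from HEK293T with each of the 3 constructs and from K562 with NES and NLS, and rRNA-depleted RNA was prepared from HEK293T with NES and NLS. Each of these 7 groups had 2 libraries, 14 of the 42 in the series. Control cells with a GFP plasmid exist for these library types, but their rates at the listed sites were not analysed here. No label ties replicates to different cultures, and the p-values therefore reflect library-to-library spread alone, which may be technical. The stage of the cell cycle was not given in the sources used here. Several comparisons below use the same libraries.

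Replication-dependent histone genes are transcribed in S phase, when new DNA must be packaged, and are shut off when replication ends. Their mRNAs normally have no poly(A) tail: they end in a conserved stem-loop that is bound by SLBP and cut with the help of the U7 snRNP, and they leave the nucleus without splicing. Some of these genes can also make longer, polyadenylated transcripts that run past the stem-loop, above all in cells that have left the cycle or differentiated. Poly(A) capture selects the tailed form, whereas rRNA depletion keeps both forms.

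Target sites near the 5' end of 7 members are shown to give the sequence around adenosines that the enzyme marked. For each member with a site in the first transcribed bases that was listed in at least 2 of the 7 tables, the most often listed one was taken. The sequences are from RefSeq, build GRCh38.p14, on the gene's strand, and the capital marks the adenosine read as G.
H1-2: tgccacttgtAcccgagtttt
H2AC17: aggtcgttttAccatgtctgg
H2BC5: tgttctaactAttaacgctac
H2BC11: ttatagctacAcagtgctatg
H2BC12: tcaggctcgtAgttcgc
H3C2: catggctcgtAc
H3C10: catggcgcgtAcgaagcagac
The windows are chr6:26056440-26056460 (H1-2, minus strand), chr6:27893142-27893162 (H2AC17, minus), chr6:26158148-26158168 (H2BC5, plus), chr6:27132748-27132768 (H2BC11, minus), chr6:27146806-27146822 (H2BC12, minus), chr6:26032050-26032061 (H3C2, minus) and chr6:27810073-27810093 (H3C10, plus). In H3C2 and H3C10 the edited adenosine lay 9 bases after the first base of the same ATG triplet. Bases next to the edited adenosine could be read for 26 member sites in 12 genes, and 57.7% of them had T before it. That share was 36.9% over 3623 sites in 1858 genes, and 12.9% over all adenosines of the same stretches, so the T was common beyond the histones. Of the 40 members, 37 had an entry in the sequence table.

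Several properties of the tables bear on every value below. They list only called sites, each with an adjusted p-value of at most 0.05 in both replicates, and give the fraction of reads changed, without read counts, so the depth is unknown and no interval can be given. A rate is an average over all sorted cells, so fewer edited cells and fewer edits per cell cannot be told apart. In rRNA-depleted RNA the NES libraries stood apart from each other: the median gene was 0.29 higher on the log2 scale in replicate 2, and 92.4% of genes were higher there. Among members 20 of 22 were higher in replicate 2, with a median of 0.78. Near-identical histone copies can share reads, so the assignment of sites to single paralogs is uncertain, and sites listed under the joint name H2AC7,H3C4 were not counted. The lines matched their labels: all 12 erythroid markers had sites in K562, and in HEK293T only EPOR did, with 1 site per rRNA-depleted table. Of 7 kidney or neural markers, K562 had 0 with sites, HEK293T poly(A) RNA 4 (PAX2, EYA1 and LHX1 were absent) and rRNA-depleted RNA 5 (PAX2 and EYA1 were absent).

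Histone mRNAs were listed far more widely in rRNA-depleted RNA than in poly(A) RNA of HEK293T. With NES, 32 members had 557 sites in rRNA-depleted RNA and 8 members had 163 in poly(A) RNA. With NLS, 27 members had 366 sites and 8 had 111. Members made up 0.161% and 0.108% of all sites listed in the rRNA-depleted NES and NLS tables, against 0.018% and 0.0193% in poly(A) RNA. A list of replication-independent histone genes, such as those of H3.3 and H2A.Z, did not show a gap of that size. It held 0.252% and 0.268% of sites in rRNA-depleted RNA against 0.165% and 0.207% in poly(A) RNA. From this list, 11 genes had sites in each rRNA-depleted table and 9 in the poly(A) tables with NES and NLS. All 8 members seen in HEK293T poly(A) RNA (H1-2, H2AC6, H2BC5, H2BC11, H2BC12, H2BC15, H2BC17 and H3C6) also had sites in rRNA-depleted RNA, and 25 members had sites there alone within HEK293T. Over all genes, rRNA-depleted RNA had 9156 names listed with NES and 8780 with NLS, and HEK293T poly(A) RNA had 10166 and 9241. The share of all genes listed in rRNA-depleted RNA alone was not counted. No H4 gene, the most uniform of the families in protein sequence, was listed in HEK293T poly(A) RNA, whereas 6 had sites in the rRNA-depleted NES table. These counts rise with coverage as well as with editing, and the share of each was not tested.

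K562 poly(A) RNA differed from HEK293T poly(A) RNA in this respect, with 25 members listed, 18 of them absent from the HEK293T poly(A) tables and 7 absent from every HEK293T table. The 23 members listed with NES had 682 sites and the 25 listed with NLS had 491. These were 0.0721% and 0.0876% of all K562 sites, against 0.018% and 0.0193% in HEK293T poly(A) RNA. Over all genes, K562 had 9566 names listed with NES and 8629 with NLS, and HEK293T poly(A) RNA had 10166 and 9241. The share of all genes listed in K562 alone was not counted. With NES, H2BC12 and H1-2 had the most sites in K562, 151 and 147. Next came H2BC4 (97 NES sites), H2BC21 (70), H2AC6 (48) and H2BC5 (36). With NLS, H2BC12 had 124 sites, H2BC21 had 79 and H1-2 had 67. Among H4 genes H4C15 had 12 NES sites and H4C8 had 8.

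**Figure D1:**
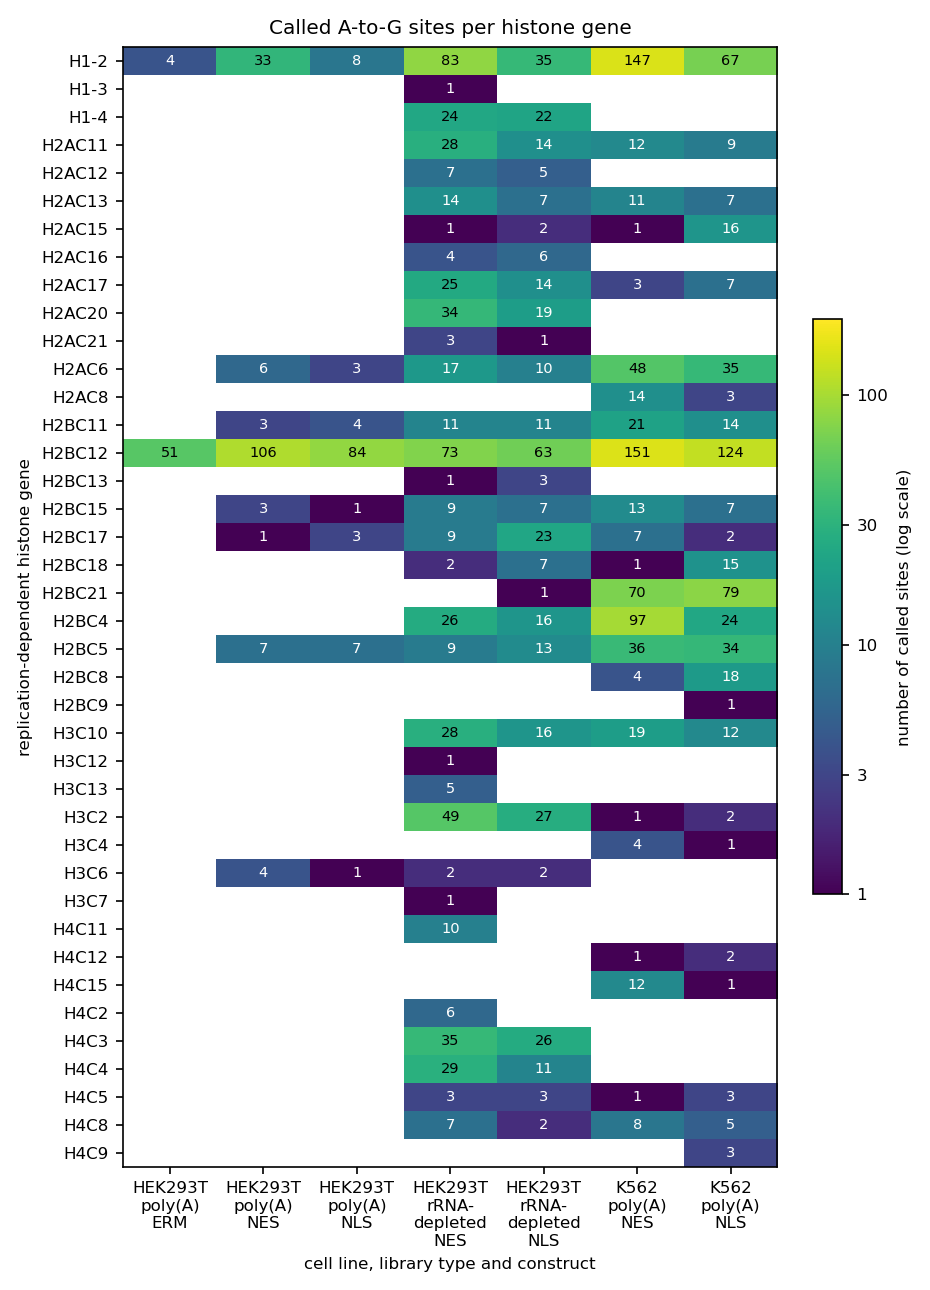
Number of called A-to-G sites for each of the 40 histone genes (rows) in the 7 groups (columns), on a log colour scale with the count printed in each cell; blank cells had no listed site. The rRNA-depleted NES column is filled for 9 H2A, 6 H3 and 6 H4 genes and the NLS column for 9, 3 and 4, where the HEK293T poly(A) NES and NLS columns have 1 H2A, 1 H3 and 0 H4 genes, and H2BC12 and H1-2 have sites in every column.

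Where along the gene a site lay differed between library types. A histone coding unit with its short flanks spans less than 800 bases, and 8 of the 40 genes have a RefSeq interval longer than that. Sites more than 800 bases past the nearest RefSeq start upstream of them made up 2.51% and 3.01% of member sites in rRNA-depleted RNA with NES and NLS. In HEK293T poly(A) RNA the shares were 39.3% with NES, 39.6% with NLS and 54.5% with ERM, and in K562 they were 36.4% and 33.8%. The genes concerned were H2BC4, H2BC5, H2BC12, H2BC18, H2BC21, H3C6 and H4C15. These shares also depend on which genes were listed, and most members have no RefSeq interval beyond 800 bases. Within H2BC12 alone, 14 of 73 sites with NES and 10 of 63 with NLS lay that far in rRNA-depleted RNA. In HEK293T poly(A) RNA 55 of its 106 sites with NES and 39 of 84 with NLS did. All far sites with ERM were of H2BC12, 30 of its 51. H2BC12 (chr6:27138293-27146858, minus strand) had the clearest arrangement, with a block of sites in the histone unit and another 8191 to 8548 bases from the start. Taking the far block to run between the outermost far sites listed in more than 1 table, 3 sites were listed between the blocks, all in K562 with NLS: the site at 8180 was at 0.549% on average, the one 2760 bases from the start was at 63.2% and 76.9% in the 2 replicates, and the one at 5972 was at 66.7% and 80%.

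Rates of histone sites in rRNA-depleted RNA were low for their tables. With NES, the mean over member sites was 4.79% and 7.23% in replicates 1 and 2, against 17.6% and 21.4% over all sites. With NLS, the means were 3.94% and 4.09% against 18.9% and 19%. In HEK293T poly(A) RNA with NES and NLS the order was the other way round: members averaged 16.3% in both NES replicates and all sites 11.1%, and with NLS members averaged 14.6% and 15.3% and all sites 8.65% and 8.95%. With ERM the mean of the members was slightly below that of all sites, at 8.78% and 8.63% against 9.09% and 8.9%. The ERM medians were further apart, at 4.31% and 4.38% for members and 6.73% and 6.56% for all sites. H2BC12 held 106 of the 163 member sites with NES, 84 of 111 with NLS and 51 of 55 with ERM. Its own means lay near those of all sites with NES (11% in both replicates) and NLS (8.84% and 9.09%). H1-2 averaged 23.1% and 22.3% over 33 NES sites. The part of this gene make-up in the means was not tested. K562 members lay below the table mean with NES, at 10.1% in both replicates against 13.5% and 13.6%, and above it with NLS, at 11.6% and 12.5% against 10.1% and 10.3%. The K562 NLS medians were in the opposite order, at 6.98% and 7.61% for members and 7.58% and 7.71% for all sites. The lowest listed rate also differed. For H1-2 with NES it was 0.205% in rRNA-depleted RNA and 5.4% in HEK293T poly(A) RNA. With NLS it was 0.223% and 9.63%, and with ERM 7.9% in poly(A) RNA. The part of the lowest listed rate in these means was not tested.

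Cytoplasmic and nuclear enzyme were compared first in rRNA-depleted RNA, where the tailless histone mRNAs are retained. The comparison used sites listed with both constructs and took the mean rate of each gene over them, relative to the median gene of each library. Of 25 members with a shared site, 17 had the required 5, and 12 of these were higher with NES, where 13.6% of all 5357 genes tested were called higher. Another 2, H2BC5 and H2BC17, were lower, where 14.6% of all genes were. The members' median was 0.78 on the log2 scale, against 0.01 over all genes tested. As deposited, without the centring, 10 were higher and 2 lower, where the same rule called 1.23% and 3.51% of all genes. H2BC12 and H2BC15 were the calls lost.

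Linker histones H1, which bind the DNA that enters and leaves the nucleosome, were higher with NES for both genes tested. H1-2 (chr6:26055740-26056470, minus strand) had a mean rate of 5.49% and 9.3% in the NES replicates and 1.79% and 1.51% in the NLS replicates over 32 shared sites. Every one of the 32 sites was higher with NES, and the libraries of the 2 constructs did not overlap. Its change of 2.11 ± 0.14 (SE, adjusted p = 1.59e-08) was the largest among the 17 members tested. H1-4 had 3.15% and 6.46% with NES and 2% and 2.6% with NLS over 18 sites, a change of 0.97 ± 0.18 (adjusted p = 0.000926).

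Core histones H3 and H4, which form the tetramer at the centre of the nucleosome, followed. H3C2 had 4.42% and 8.4% with NES and 1.98% and 2.11% with NLS, higher at 26 of 27 sites (change 1.56 ± 0.15, adjusted p = 2.13e-06). H3C10 had 4.34% and 7.48% against 1.82% and 2.64% (change 1.36 ± 0.18, adjusted p = 4.4e-05). Neither gene's libraries overlapped between constructs. H4C3 had 5.13% and 10.5% with NES and 3.67% and 2.67% with NLS, higher at 23 of 25 sites (change 1.22 ± 0.18, adjusted p = 0.000149). H4C4 did not pass, with 1.94% and 3.13% against 1.28% and 2.28%, and its libraries overlapped (change 0.51 ± 0.21, adjusted p = 0.0813). It was called higher without NLS replicate 2, with a change of 0.92 and an adjusted p of 0.011. H4C11, H4C2 and H3C13 had 10, 6 and 5 sites with NES and 0 with NLS, so they could not be compared.

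H2A genes, whose protein pairs with H2B on the outside of the tetramer, were higher with NES in 4 of the 5 tested. H2AC20 had 3.48% and 6.85% with NES against 1.84% and 1.95% with NLS, higher at all 18 sites (change 1.35 ± 0.17, adjusted p = 2.08e-05). H2AC13 stood out for its level, with 24.3% and 39.6% against 16.6% and 11.3% over 6 sites (change 1.17 ± 0.22, adjusted p = 0.00096). H2AC11 changed by 1.03 ± 0.16 and H2AC17 by 0.72 ± 0.21. H2AC6 did not pass, at 5.99% and 5.61% against 4.45% and 4.46% (change 0.37, adjusted p = 0.135), though its libraries did not overlap.

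H2B genes were the mixed family, with 3 higher, 2 lower and 1 not called. H2BC4 (change 0.78 ± 0.17) was higher at all 15 sites, H2BC15 (0.67 ± 0.21) at all 6, and H2BC12 (0.42 ± 0.10) at 44 of 55. H2BC5 had 2.63% and 3.35% with NES and 5.54% and 6.77% with NLS, and only 1 of its 7 sites was higher with NES (change -1.06 ± 0.18, adjusted p = 0.00042). H2BC17 had 1.39% and 2.72% against 3.85% and 3.51%, also with 1 of 9 sites higher (change -0.93 ± 0.20, adjusted p = 0.00209). H2BC17 also had more sites listed with NLS than with NES, 23 against 9. H2BC11 differed by less than the spread between replicates, with 2.95% and 4.35% against 3.15% and 3.77%.

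Of these 17 genes, 3 had overlapping libraries (H2BC11, H4C4 and H2AC17), as had 53.1% of all genes tested. Both NES libraries lay above both NLS libraries for 12 members and for 24.2% of all genes. Without NES replicate 2, the higher of the 2 that stood apart, 11 members were called higher and 2 lower, where 12.5% and 14% of all genes were. H2AC17 (adjusted p = 0.264) and H2BC15 (0.207) then lost their calls, H2AC6 gained one (0.0354), and H2BC11 changed sign. Without NLS replicate 1, 8 were called higher, as H2AC17, H2BC4, H2BC12 and H2BC15 lost their calls, and the share of all genes called higher fell to 4.8%. H2BC15 was also lost without NLS replicate 2 (0.0816). Taking a gene's median site in place of its mean, H2BC5 (-0.35, adjusted p = 0.321) and H2AC17 (0.48, 0.146) were not called.

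**Figure D2:**
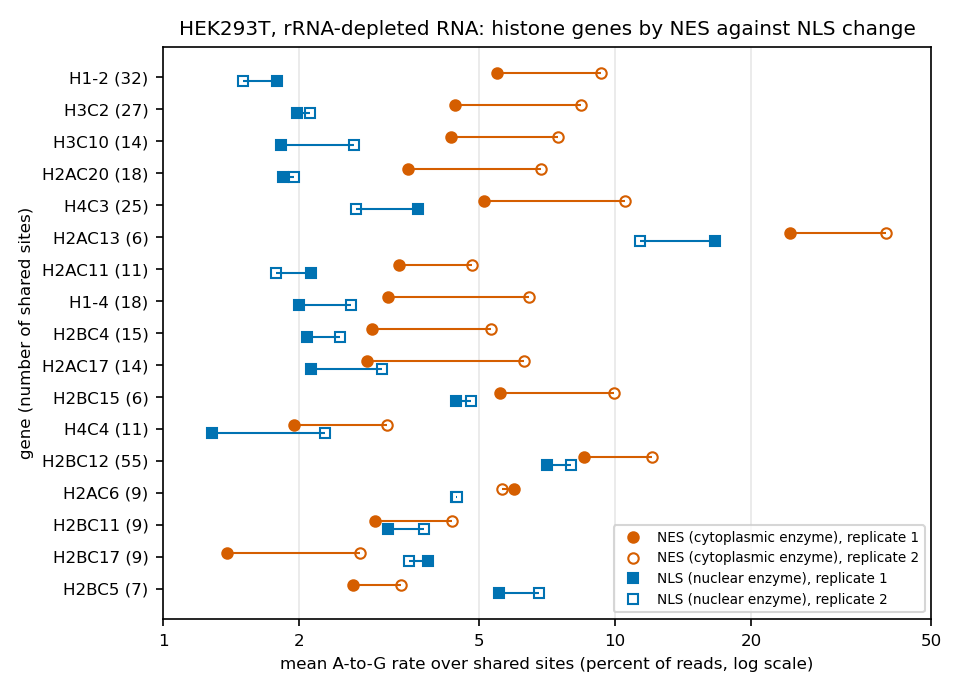
Mean A-to-G rate over shared sites (percent of reads, log axis) for 17 histone genes in HEK293T rRNA-depleted RNA; each point is 1 library, circles are NES, squares NLS, filled replicate 1 and open replicate 2, and lines join replicates. H1-2 at the top had NES libraries at 5.49% and 9.3% and NLS libraries at 1.79% and 1.51%, and H2BC5 and H2BC17 at the bottom have their NLS libraries to the right.

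In K562 poly(A) RNA 10 of the 21 members with a shared site had 5 or more, and all 10 were called. H1-2 and H2BC12 were higher with NES and the other 8 lower relative to the median gene, where 40.5% of 6523 genes were called higher and 34.6% lower. As deposited, the median difference over all genes was 0.72 toward NES. On that scale 3 members were higher (H1-2, H2BC12 and H2BC5, where 80.2% of all genes were) and 1 lower (H2BC21, where 5.89% were).

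H1-2 had 10% and 10.2% with NES and 2.22% and 2.42% with NLS over 66 sites, and was higher at 64 of them (change 1.45 ± 0.06, adjusted p = 1.6e-08). H2BC12 had 8% and 8.49% with NES and 3.19% and 3.14% with NLS, higher at 104 of 115 sites (change 0.71 ± 0.05, adjusted p = 5.38e-07). Both genes stayed higher as deposited, at 2.13 and 1.38. H2BC21, which had no site in HEK293T poly(A) RNA, had 13.7% in both NES replicates and 14.8% and 16.2% with NLS (change -0.85 ± 0.06, adjusted p = 9.97e-07, and -0.18 as deposited). Its NES libraries lay below its NLS libraries, as did those of 8.31% of all genes tested.

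The other lower calls rested on the centring. H2BC11 (-0.88), H2BC4 (-0.78) and H3C10 (-0.68) were lower against the centre of all genes, and on the deposited scale they were at -0.20, -0.11 and -0.01 with no call. H2AC11 (-0.60), H2AC6 (-0.54), H2BC15 (-0.41) and H2BC5 (-0.40) changed sign as deposited, to 0.08, 0.13, 0.26 and 0.28. The libraries of H2BC4, H2BC11, H2AC11 and H3C10 overlapped between constructs, 4 of 10 members beside 7.33% of all genes. H2BC15 lost its call without NES replicate 1, without NES replicate 2 and without NLS replicate 1 (adjusted p = 0.0768, 0.176 and 0.0995), and H2BC5 without NES replicate 2 (0.0578). Taking the median site, H2AC11, H2BC15 and H2BC5 were not called (adjusted p = 0.0872, 0.585 and 0.618).

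Dividing the longer genes at 800 bases, chosen after seeing the data, separated their parts. In H2BC5 the histone unit was at 8.82% and 8.06% with NES and 9.69% and 12.3% with NLS, whereas the part beyond it was at 21.5% and 19% against 12.4% and 14.2%. Relative to the median gene the unit of H2BC5 was lower (-1.05 ± 0.13, adjusted p = 4.38e-05) and the far part was not called (-0.07 ± 0.11, adjusted p = 0.607). H2BC12 was higher with NES in both parts, by 0.92 ± 0.06 in the far part and 0.33 ± 0.06 in the unit. H2BC21 and H2BC4 were lower in both relative to the median gene, by -0.80 and -0.74 in the far part and -1.22 and -0.86 in the unit. In rates as deposited these were -0.13 and -0.06 in the far part and -0.55 and -0.17 in the unit. The libraries of H2BC4 overlapped between constructs in both parts, and those of H2BC21 did not.

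Some K562 members had most of their sites with the nuclear enzyme. H2BC8 had 18 sites with NLS and 4 with NES, H2AC15 had 16 and 1, and H2BC18 had 15 and 1. The 15 H2BC18 sites averaged 51% and 51.3% in the NLS replicates and lay 159 to 5407 bases from a RefSeq start. H2AC15 averaged 35.4% and 42.6% over its 16 sites, and at the single site shared by both constructs it had 63.3% and 79% with NLS and 13.2% and 17.6% with NES. In all, 10 of 25 members had more NLS than NES sites, as had 12.4% of 9770 genes in K562. H2AC8 (14 NES sites and 3 NLS sites), H4C15 (12 and 1) and H2BC4 (97 and 24) were on the other side.

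**Figure D3:**
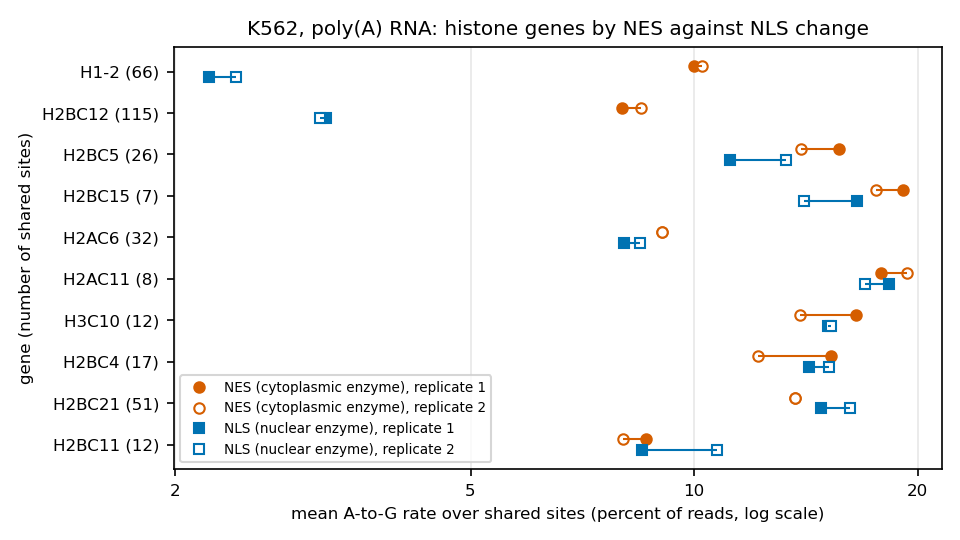
Mean A-to-G rate over shared sites (percent of reads, log axis) for 10 histone genes in K562 poly(A) RNA; each point is 1 library, circles are NES, squares NLS, filled replicate 1 and open replicate 2. H1-2 had NES libraries near 10% and NLS libraries at 2.22% and 2.42%, H2BC12 was also separated, and the other 8 genes had both constructs close together.

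HEK293T poly(A) RNA left 3 members to test. H1-2 had 41.6% and 40.4% with NES and 21.5% and 19.2% with NLS over 8 sites, each of which was higher with NES (change 0.39 ± 0.16, adjusted p = 0.0316). This call was lost without NES replicate 1 (adjusted p = 0.0941), without NES replicate 2 (0.0636) and without NLS replicate 2 (0.2). H2BC5 had 24.8% and 25.1% against 34.6% and 41.1%, lower at all 5 sites (change -1.22 ± 0.19, adjusted p = 4.69e-07, and -0.60 as deposited). H2BC12 was not called relative to the median gene (-0.09 ± 0.06, adjusted p = 0.216) and was higher as deposited (0.53), with 13.5% and 13.3% against 9.14% and 9.41% over 80 sites. Divided at 800 bases, its unit was lower relative to the median gene (-0.27 ± 0.09, adjusted p = 0.00574, and 0.35 as deposited), and its far part was not called (0.05 ± 0.09, adjusted p = 0.646). Of 6739 genes, 36.7% were called higher and 30.7% lower, and 77.8% and 6.11% as deposited, where the median difference was 0.66.

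The membrane-anchored enzyme listed only H2BC12 (51 sites) and H1-2 (4 sites). H2BC12 had 7.32% and 7.28% with ERM and 18.5% and 18.4% with NES over 51 sites, and none of the 51 was higher with ERM. Relative to the median gene it was lower by -0.69 ± 0.06 (adjusted p = 3.36e-06), where 12.6% of 6884 genes were called higher and 23.5% lower (0.0726% and 91.2% as deposited). Against NLS it had 7.43% and 7.39% with ERM and 12.6% and 13% with NLS (change -0.91 ± 0.07, adjusted p = 1.85e-10). There 32.3% of 5826 genes were called higher and 31.3% lower, and 40.5% and 22.5% as deposited. Of its 50 sites, 2 were higher with ERM. As deposited the changes of H2BC12 were -1.34 and -0.79, beside medians over all genes of -0.66 and 0.13.

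The library types were then compared at the same HEK293T sites. With NES, all 3 testable members were lower in rRNA-depleted than in poly(A) RNA, where 7.52% of 6328 genes were called higher and 11% lower (60.1% and 0.474% as deposited). H2AC6 had 7.93% and 7.69% in rRNA-depleted RNA and 38.2% and 43.7% in poly(A) RNA over 5 sites (change -2.94 ± 0.21, adjusted p = 2.04e-06). H1-2 had 6.37% and 11.2% against 23.6% and 22.7%, lower at all 32 sites (change -2.01 ± 0.14, adjusted p = 2.04e-06). With NLS, H1-2 had 2.71% and 2.27% against 21.5% and 19.2% over 8 sites (change -4.21 ± 0.16, adjusted p = 1.5e-10), and H2BC12 changed by -1.39 ± 0.08, where 20.6% of 4960 genes were called higher and 26.5% lower (97.9% and 0.161% as deposited). As deposited the median difference over all genes was 0.52 with NES and 1.13 with NLS, and H1-2 was still lower, at -1.46 and -3.03, as was H2AC6 at -2.39 and, with NLS, H2BC12 at -0.22. A shared site had to be called in poly(A) RNA, where the lowest listed rates with NES were 5.4% for H1-2 and 22.3% for H2AC6. In rRNA-depleted RNA they were 0.205% and 1.27%. With NLS the lowest rate of H1-2 was 9.63% in poly(A) RNA and 0.223% in rRNA-depleted RNA. The part of these lowest rates in the differences was not tested.

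In rates as deposited, H2BC12 was lower in rRNA-depleted RNA in one stretch and higher in another. The far block's log2 change was 0.51 with NES and 0.68 with NLS, beside medians over all genes of 0.52 and 1.13. With NES, the 48 shared sites of the histone unit averaged 5.14% and 8.31% in rRNA-depleted RNA and 9.52% and 9% in poly(A) RNA, and 6 of them were higher in rRNA-depleted RNA. The 14 sites of the far block averaged 29.1% and 29% against 20.1% and 20.7%, and all 14 were higher in rRNA-depleted RNA. With NLS, the unit averaged 5.03% and 5.34% against 8.73% and 8.81%, with 4 of 38 sites higher, and the far block 18% and 20.4% against 11.6% and 12.3%, with 10 of 10 higher. In each stretch the libraries of the 2 types did not overlap. Over all genes tested, both rRNA-depleted libraries lay above both poly(A) libraries for 82% with NES and 99% with NLS. They lay below both for 0.901% and 0.161%.

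The far block was thus 5.65 and 3.49 times the unit in the rRNA-depleted NES libraries and 2.12 and 2.3 times in the poly(A) NES libraries. With NLS these ratios were 3.58 and 3.83 against 1.33 and 1.4. In groups of 2 libraries an exact permutation test of this ratio could not pass the threshold. Tested as separate features among all genes, a division chosen after seeing the data, the H2BC12 unit was lower relative to the median gene with NES (-1.06 ± 0.11, adjusted p = 5.26e-05) and with NLS (-1.93 ± 0.08, adjusted p = 3.02e-10). The far block was not called with NES (-0.04 ± 0.14, adjusted p = 0.847) and was lower with NLS (-0.49 ± 0.14, adjusted p = 0.0104), although as deposited it was higher in both. Undivided, H2BC12 was called lower with NES (-0.56) but not as deposited (-0.01, adjusted p = 0.965). There its libraries overlapped, as did those of 17.1% of all genes tested.

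**Figure D4:**
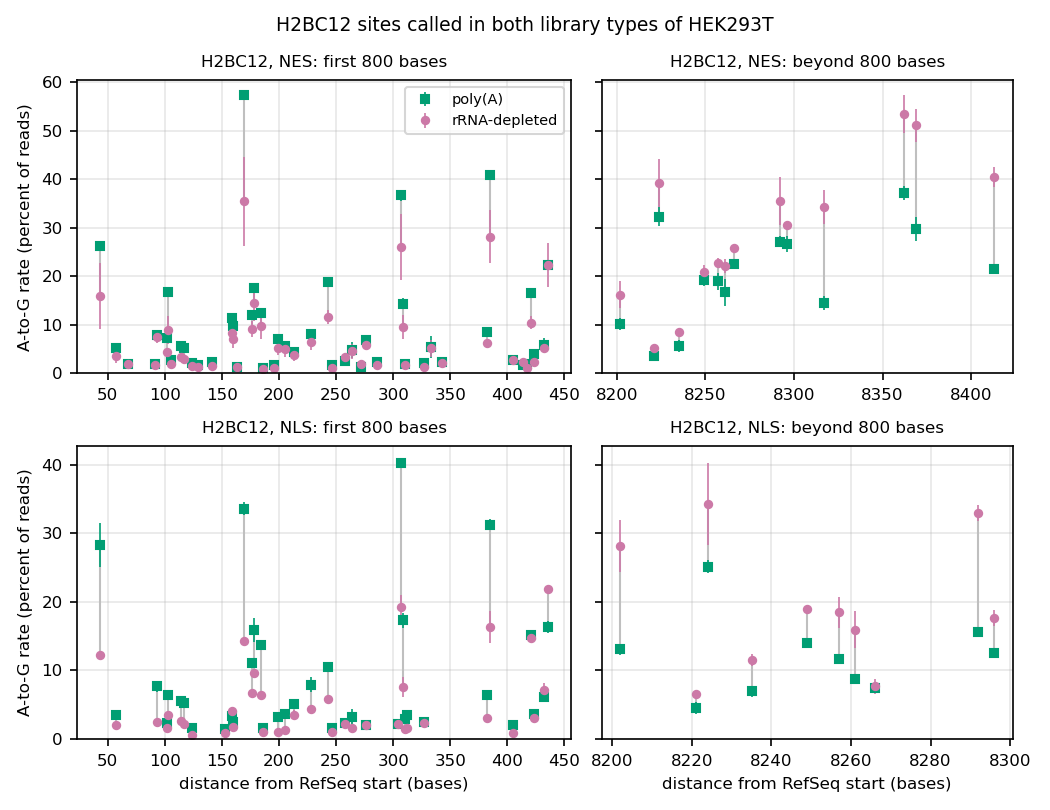
A-to-G rate (percent of reads) at H2BC12 sites listed in both library types of HEK293T, by distance from the RefSeq start in bases, for NES (top) and NLS (bottom); points are means of 2 replicates, bars reach to both replicates and grey lines join the same site. In the first 800 bases the rRNA-depleted circles lie above the poly(A) squares at 6 of 48 sites with NES and 4 of 38 with NLS, and beyond them at all 14 and all 10.

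K562 and HEK293T were compared in poly(A) RNA, with each line's own NES or NLS libraries. With NES, 3 of 4 members were lower in K562, where 21.7% of 7252 genes were called higher and 27.7% lower (73.9% and 2.28% as deposited). H2AC6 had 27% and 27.5% in K562 and 35.8% and 39.8% in HEK293T (change -0.85 ± 0.14), H1-2 had 17.2% and 17.4% against 23.1% and 22.3% (-0.77 ± 0.08), and H2BC12 had 9.05% and 9.6% against 10.9% in both (-0.60 ± 0.05). H2BC5 was not called (-0.17, adjusted p = 0.318, and 0.21 as deposited). With NLS, H1-2 (-1.67 ± 0.15), H2BC12 (-1.34 ± 0.06) and H2BC5 (-0.95 ± 0.17) were lower, and all 3 were also lower as deposited. There 17.2% of 5661 genes were called higher and 25.4% lower (48.6% and 6.89% as deposited). The median difference over all genes as deposited was 0.35 with NES and 0.23 with NLS. Cell line, transfection method and batch cannot be told apart here.

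The difference between constructs was not the same in both lines. At sites listed in all 4 poly(A) tables, a comparison chosen after seeing the data, the NES against NLS change was more positive in K562 by 1.00 ± 0.18 for H1-2 (adjusted p = 0.000411) and 0.76 ± 0.07 for H2BC12 (adjusted p = 4.86e-07). For H2BC5 it was -0.50 in K562 and -1.27 in HEK293T relative to the median gene, a difference of 0.77 ± 0.23 (adjusted p = 0.0141). That call was lost without K562 NES replicate 1 (0.0738) or HEK293T NLS replicate 2 (0.0546). In rates, H2BC5 was at 30.7% and 28.5% with NES and 21.9% and 27.2% with NLS in K562. In HEK293T it was at 24.8% and 25.1% with NES and 34.6% and 41.1% with NLS. A difference between lines in the NES against NLS change was called for 36.4% of 5172 genes.

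Just 31 member sites were listed in all 7 groups, 3 in H1-2 and 28 in H2BC12. The H1-2 site 141 bases from the start (chr6:26056329) was the highest member site with NES in poly(A) RNA of both lines, at 84.8% and 80.2% in HEK293T poly(A) RNA and 74.4% and 73.2% in K562. Its mean rate was 56.3% in HEK293T poly(A) RNA with NLS, 44.2% with ERM and 20.6% in K562 with NLS. In rRNA-depleted RNA the same adenosine was at 25.7% with NES and 5.2% with NLS. For the 19 such sites of the H2BC12 unit the median was 12.4% in HEK293T poly(A) RNA and 9.17% in rRNA-depleted RNA with NES. One of these unit sites is the H2BC12 target shown above, with 25.4% and 27.2% in HEK293T poly(A) NES libraries and 9.19% and 22.7% in rRNA-depleted ones. The 9 far sites were in the other order, with medians of 19.3% and 22.8%. The H2BC11 target site was listed in poly(A) tables only, at 57.4% and 53.2% in HEK293T with NES, 47.9% and 52.6% with NLS, 28.3% and 29.3% in K562 with NES and 16.7% and 26.4% with NLS.

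Other histone genes, and genes that make, package and degrade histone mRNA or carry histone proteins, were examined as lists for comparison. In rRNA-depleted RNA 2 of 8 testable replication-independent histones were higher with NES and 2 lower (0 and 1 as deposited), where 13.6% and 14.6% of all genes were, with a median of 0.07 beside 0.78 for the replication-dependent members. H3-3B and H3-3A, which both encode H3.3, went apart, at 0.35 ± 0.08 (adjusted p = 0.00386) and -0.61 ± 0.09 (adjusted p = 0.000172). Of 22 testable genes of histone mRNA transcription, processing, export and decay, 2 were higher and 4 lower (0 and 2 as deposited). SRRT, the ARS2 protein of the nuclear cap-binding pathway, was lower with NES in HEK293T rRNA-depleted RNA (-0.92 ± 0.10), HEK293T poly(A) RNA (-0.84 ± 0.04) and K562 poly(A) RNA (-1.01 ± 0.03). Among histone chaperones, which hand histone proteins to DNA, 1 of 18 was higher and 3 lower in rRNA-depleted RNA (0 and 1 as deposited). SUPT16H, a subunit of the FACT chaperone, was the higher one (0.26 ± 0.08, adjusted p = 0.0282). In poly(A) RNA the split between constructs was 4 higher and 3 lower of 9 replication-independent histones, 8 and 11 of 31 mRNA-handling genes and 8 and 9 of 19 chaperones in HEK293T, where 36.7% and 30.7% of all genes were called. As deposited these splits were 8 and 0, 20 and 5, and 15 and 1, where 77.8% and 6.11% of all genes were called. In K562 the splits were 3 and 1 of 7, 9 and 11 of 28, and 5 and 5 of 18, where 40.5% and 34.6% of all genes were called. As deposited they were 7 and 0, 23 and 3, and 16 and 0, where 80.2% and 5.89% were. In HEK293T poly(A) RNA H3-3B was higher with NES (0.40 ± 0.04) and in K562 it was lower (-0.23 ± 0.03, and 0.44 as deposited).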

How the data were processed

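Per the submitters' processing notes, reads were trimmed with cutadapt, aligned with STAR and Bowtie2 to hg38 and handled with SAMtools. For site calling, the annotation and the strand setting, the method was not given in the sources used here. Deposited tables list, per construct and library type, each called A-to-G site with the authors' fraction of changed reads and an adjusted p-value for each of 2 replicates, without read counts, so the depth is unknown. Rates were printed as percent.

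For each comparison, sites listed for both groups were averaged per gene and library, genes with at least 5 shared sites were kept, log2 values were centred on each library's median gene, and groups were compared with limma 3.58.1 (R 4.3.3, trend on the number of shared sites, two-sided, Benjamini-Hochberg over all genes tested, threshold 0.05). "As deposited" means without the centring. Distances count from the nearest RefSeq transcript start at or upstream of the site (GRCh38.p14), even where another start lay closer downstream. The fit was tested on simulated data: of 200 genes moved by 1 log2 unit, 77.5% to 92% were recovered in 11 simulated comparisons, with 2 to 14 false calls.

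Members with at least 5 shared sites were named in each comparison, with up to 12 others by most sites, and from each further list (replication-independent histones; histone mRNA transcription, processing, export and decay; histone chaperones) at most 4 genes by most shared sites. Members and lists were chosen with earlier results of these data known. Alternatives were no centring, 1 or 10 shared sites, the median site, a pseudocount of 0.01, no trend, a replicate block and leaving out each library. Other files of the series were not used here. Python 3.11.15 with pandas 2.3.3 and matplotlib 3.10.9 did the joins and plots.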

Additional observations from a re-analysis of the deposited data

Results flagged for a closer look

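The NES against NLS change differed between cell lines and between library types when the difference itself was tested in limma at sites listed in all 4 tables, with Benjamini-Hochberg adjustment, a comparison chosen after seeing the data. Changes here are relative to the median gene unless given as deposited. Between K562 and HEK293T poly(A) RNA the change differed by 1.00 for H1-2 (8 sites, 1.34 against 0.34), by 0.76 for H2BC12 (77 sites, 0.64 against -0.12) and by 0.77 for H2BC5 (5 sites, -0.50 against -1.27). Between rRNA-depleted and poly(A) RNA of HEK293T, H1-2 differed by 2.10 ± 0.23 (8 sites, 2.38 against 0.28, adjusted p = 1.09e-05), and by 1.45 as deposited. H2BC12 differed there by 0.66 ± 0.11 (45 sites, 0.35 against -0.31, adjusted p = 0.000316), but by 0.01 as deposited (adjusted p = 0.978). Such a difference was called for 35.9% of 4235 genes between library types.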

How the results depend on the processing

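Of 542 recomputed values of single members, 500 kept their direction and side of the threshold, 30 lost the call, 3 gained it and 9 changed sign. Without centring, the signs of H2BC12 in HEK293T poly(A) RNA (0.53), of H2AC11 (0.075), H2AC6 (0.13), H2BC15 (0.26) and H2BC5 (0.28) in K562, and of H2BC5 between lines with NES (0.21) changed. H4C4 changed sign with the median site (-0.068), and H2BC11 ranged from -0.076 to 0.16 when single rRNA-depleted libraries were left out. Without centring, genes called went from 1510 to 254 for NES against NLS in rRNA-depleted RNA, from 2489 to 6284 for ERM against NES, from 1170 to 3830 and from 2332 to 4864 between library types with NES and NLS, and from 3580 to 5522 between lines with NES. Without a trend, ERM against NES had 1610 calls and library types with NES 461, and 683 with the median site. Leaving out single libraries gave 593 to 1531 calls for NES against NLS in rRNA-depleted RNA, 463 to 2352 between library types with NES and 2066 to 3864 between lines with NES. Replicate numbers did not pair the libraries (correlations of deviations -0.021 to 0.089). With a replicate block, NES against NLS had 1797 calls in rRNA-depleted RNA, 4569 in HEK293T poly(A) RNA and 4978 in K562, and H4C4 gained a call (adjusted p = 0.00743). The cause of these shifts was not tested. Depth is unknown, so the precision of single rates cannot be given.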
